A study of Rattus norvegicus with 8 samples.

Results

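The connexins of the ovarian follicle and oocyte were followed through arrays of rat ovary RNA: Gja1, Gja4, Gja5, Gjb1, Gjb2, Gjb5 and Gjc1. Members were taken by gene name among the non-control probes of the array, and all 7 genes were found, out of 26204 gene names on it. Gja1, Gja4, Gja5, Gjb1, Gjb2 and Gjb5 carried their own symbol. Gjc1 stood under its older name Gja7 and was matched through its RefSeq accession, NM_001085381. Each member had 1 probe of 60 bases, and all 7 probes read well above background on all 8 arrays. The label was PMSG on 4 arrays and control on the other 4.

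PMSG, pregnant mare serum gonadotropin, acts mainly like follicle-stimulating hormone and in part like luteinising hormone. Per the labels, immature female rats received 50 IU of it under the skin at 26 days of age, dissolved in a volume of 0.2 ml. The solvent was a phosphate buffer with albumin, and the control rats received it alone, though the titles of the control samples call them a reference without treatment. Whole ovaries were collected 48 h later, at 28 days, and 500 ng of total RNA per sample was labelled with Cy3. The labels name no strain and do not say whether each array holds 1 animal. The p-values therefore set each difference against the spread between these samples, which may not be the spread between animals. In whole-organ RNA, fewer cells of a type and less RNA per cell cannot be told apart.

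Connexins are membrane proteins that assemble into hexameric hemichannels. Hemichannels of neighbouring cells dock and form gap junctions, which let ions, cyclic nucleotides and small metabolites pass between cytoplasms. In the ovarian follicle, Cx43, the product of Gja1, couples granulosa cells to each other, and Cx37, the product of Gja4, links the oocyte to the granulosa cells around it. Through these channels granulosa cells feed the oocyte and send it the cyclic GMP that helps to hold its meiosis in arrest. Blood vessels use Cx37, Cx40 and Cx45, so the same genes are also read from the ovary's vessels.

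The probe sequences below show what was read for the members on which the results turn, 5′ to 3′, as the array files give them. Positions are those of the files, on the rat build rn4. For Gja5 and Gjb2, 30 bases of the probe are shown, and the 3 others are shown whole. The capitals at the end of the Gjb2 probe mark the letters of a polyadenylation signal.
Gja5: cttcgatggtgaggtttttcagaagagaaa
Gjb1: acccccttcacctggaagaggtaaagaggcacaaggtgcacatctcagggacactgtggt
Gjb2: gtcgttgggaagccattctgtaacAATAAA
Gjb5: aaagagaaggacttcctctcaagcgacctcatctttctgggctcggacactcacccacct
Gjc1: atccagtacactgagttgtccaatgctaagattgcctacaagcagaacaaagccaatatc
The Gja5 probe (NM_019280) lies at chr2:191843785-191843844 on the plus strand and the Gjb1 probe (NM_017251) at chrX:89455686-89455745 on the plus strand. The Gjb2 probe (NM_001004099) lies at chr15:36153667-36153726 and the Gjb5 probe (NM_019241) at chr5:146802897-146802956, both on the minus strand. The Gja1 probe (NM_012567) lies at chr20:35422026-35422085 on the plus strand and the Gja4 probe (NM_021654) at chr5:146755345-146755404 on the minus strand. The Gjc1 probe is listed as unmapped. The array names no exon or coding boundary for these positions, and an rn4 annotation was not used here.

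Promoters of the 3 members with a clear difference and an entry in the RefSeq promoter table (assembly GRCr8) are shown because Gja5 and Gjb1 moved one way and Gjb2 the other. Each covers the 250 bases before the gene start on the gene's own strand. They lie at chr2:187290977-187291226 (plus strand) for Gja5, chrX:70541595-70541844 (plus strand) for Gjb1 and chr15:35381954-35382203 (minus strand) for Gjb2. Capitals mark matches, on either strand, to AP-1 (TGANTCA), the core of the cyclic AMP response element (TGACG), SF-1 (AAGGTCA), the GC box (GGGCGG) or the TATA box (TATAAA). None of these 5 motifs contains another.
Gja5: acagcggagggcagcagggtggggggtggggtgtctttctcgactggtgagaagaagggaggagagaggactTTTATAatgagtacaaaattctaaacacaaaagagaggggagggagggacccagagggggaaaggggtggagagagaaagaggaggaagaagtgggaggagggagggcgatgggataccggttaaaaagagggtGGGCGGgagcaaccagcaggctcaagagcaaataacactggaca
Gjb1: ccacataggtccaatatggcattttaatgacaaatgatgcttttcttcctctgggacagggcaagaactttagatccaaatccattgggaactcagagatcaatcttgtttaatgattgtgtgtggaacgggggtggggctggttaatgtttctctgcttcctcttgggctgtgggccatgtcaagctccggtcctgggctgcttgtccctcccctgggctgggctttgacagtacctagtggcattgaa
Gjb2: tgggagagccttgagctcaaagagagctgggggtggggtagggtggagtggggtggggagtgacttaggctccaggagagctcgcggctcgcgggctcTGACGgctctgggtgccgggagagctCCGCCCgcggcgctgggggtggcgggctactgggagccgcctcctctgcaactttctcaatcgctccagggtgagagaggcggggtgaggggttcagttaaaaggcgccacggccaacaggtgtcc
The Gja5 window held 1 GC box, beginning 44 bases before the start, and 1 TATA box, 178 bases before it. The Gjb2 window held 1 GC box, 126 bases before the start, and 1 TGACG core, 152 bases before it. No match to the 5 motifs was present in the Gjb1 window. Of 33469 promoters of the same length, 30.5% held a GC box, 18.2% a TGACG core, 12.9% a TATA box, 6.34% an AP-1 match and 3.99% an SF-1 match. The Gja1 promoter held the only AP-1 match among the 5 members in the table, 58 bases before the start, and 2 TGACG cores, while Gja4 held 1 GC box. These are matches of letters, not measured binding.
Gja1 around its AP-1 match: cctccttccagtTGAGTCAgtggcttgaaa

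Levels are given as scaled log2 signal: the log2 of the probe's processed signal minus the 75th percentile of log2 signal on the same array. A value of 0 is as bright as that percentile, and probes cannot be ranked against each other on it. A probe was called different where the limma p-value, adjusted by Benjamini-Hochberg over all 25303 tested probes, was under 0.05. By that rule 34.2% of tested probes differed between the labels, 17.6% higher and 16.6% lower in arrays labelled PMSG. The higher probes were 51.4% of the calls, and 34.5% with each array centred on its median. The signal at the 75th percentile ran from 768.9 to 1103 over the 8 arrays, between 80.8% and 84.6% of probes were well above background, and no spot was saturated.

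The group labels were checked on genes known to respond to gonadotropin. Cyp11a1, which starts steroid synthesis from cholesterol, was lower in arrays labelled PMSG by a log2 difference of -3.36 (limma, adjusted p = 0.000232). Star, which carries cholesterol into mitochondria, was lower, at -2.75 (adjusted p = 0.00541), and Lhcgr, the luteinising hormone receptor, at -1.93 (adjusted p = 0.00114). All of them generally rise after gonadotropin treatment, so the directions ran against the labels. Cyp19a1 was not analysed here. The tissue label was met by the probes of all 14 oocyte, 12 granulosa and 7 theca marker genes, which were well above background on all 8 arrays. Every direction given for a connexin therefore follows the array labels alone, and the samples are named as the arrays labelled PMSG or labelled control.

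Of the 7 connexins, 3 were higher in the arrays labelled PMSG (Gja5, Gjb1 and Gjb5) and 1 was lower (Gjb2), while Gja1, Gja4 and Gjc1 did not pass. This is 57.1% of the members against 34.2% of all tested probes. Groups did not overlap for 5 of the 7, against 36.6% of tested probes. The median log2 difference of the members was 0.19, beside 0.11 over all tested probes. Gjb1 was the only member both called and at least 2-fold higher, and Gjb2 the only one both called and at least 2-fold lower. These classes held 7.2% and 4.6% of tested probes.

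**Figure D1:**
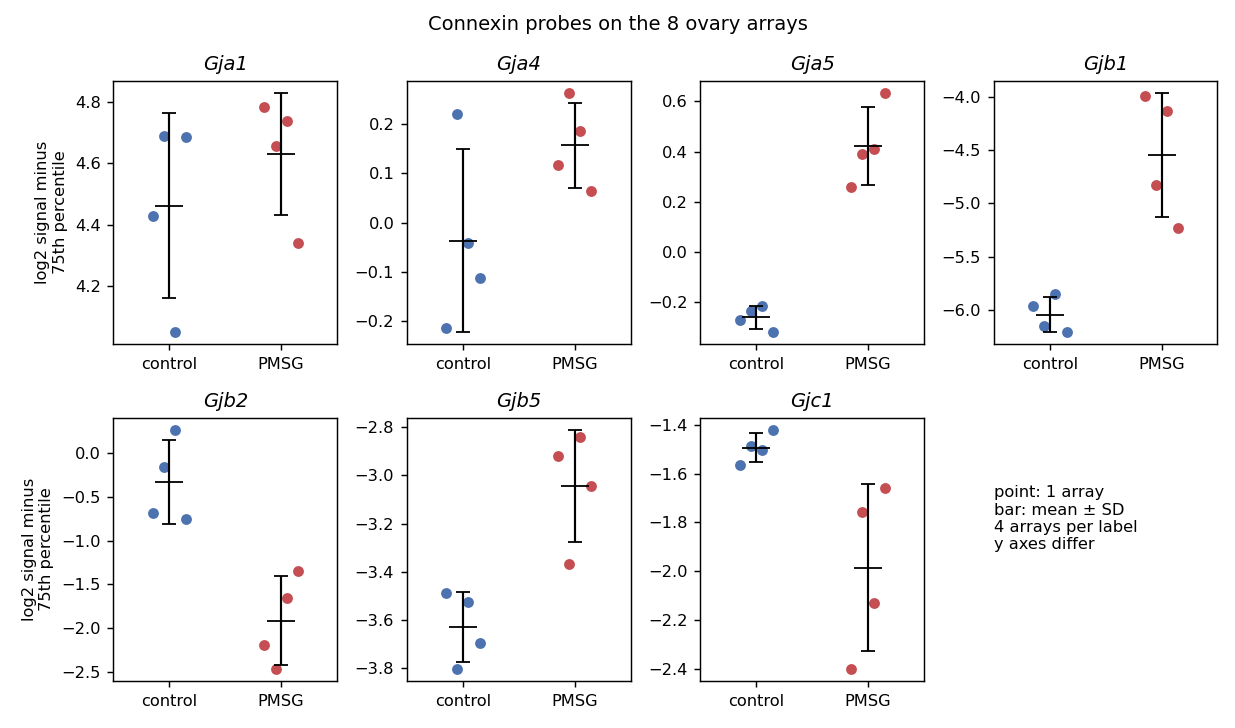
Scaled log2 signal (log2 signal minus the array's 75th percentile, y axis, scale differs between panels) of the 7 connexin probes on the 4 arrays labelled control (blue) and the 4 labelled PMSG (red). Each point is 1 array and each bar the mean with its SD. The labels do not overlap for Gja5, Gjb1, Gjb2, Gjb5 and Gjc1, and they overlap for Gja1 and Gja4.

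Gja1 codes for Cx43, the main junction protein between granulosa cells. Its scaled log2 signal was 4.43, 4.69, 4.05 and 4.69 on control arrays 1 to 4, and 4.79, 4.66, 4.74 and 4.34 on PMSG arrays 1 to 4. Both labels covered much the same range, with control array 3 and PMSG array 4 the lowest of their groups. The means were 4.46 ± 0.30 (SD, n = 4) for control and 4.63 ± 0.20 (SD, n = 4) for PMSG. Their log2 difference was 0.17 (SE 0.17, 95% interval -0.23 to 0.56), which did not pass (limma, adjusted p = 0.468). The interval covers both signs. Of this probe 8 to 10 spots were usable on each array, and their SD on 1 array was at most 0.056, so the spread lay between arrays and not between spots.

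Gja4 codes for Cx37, the connexin of the oocyte's own junctions with the granulosa cells, which arterial endothelium also makes. Scaled log2 signal on the control arrays was -0.22, 0.22, -0.041 and -0.11, and on the PMSG arrays it was 0.12, 0.26, 0.19 and 0.064. Control array 2 reached into the PMSG range and the other three controls lay below it. The log2 difference was 0.19 (SE 0.12, 95% interval -0.07 to 0.46) and did not pass (limma, adjusted p = 0.223). Without control array 2 it was 0.28 with an adjusted p of 0.0991, and with each array centred on its median it was 0.027.

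The oocyte marker list is given beside Gja4. All 14 of its measured genes were higher in arrays labelled PMSG, with a median log2 difference of 1.92, and the largest differences were those of H1foo (2.22), an oocyte linker histone, and Zar1 (2.18), Lhx8 (2.17) and Zp2 (2.17). The summed level of the list, in multiples of the 75th percentile signal, ran from 4.56 to 7.91 on control arrays and from 16.7 to 31.4 on PMSG arrays. Such sums, here and below, are weighted towards a list's brightest probes and do not measure cell content. The interval of the Gja4 difference ended at 0.46, below the difference of 0.89 for Kit, the smallest in that list. The test of Gja4 against the oocyte genes themselves was not made.

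Gja5 codes for Cx40, a connexin of arterial endothelium and of the conduction tissue of the heart. Scaled log2 signal was -0.27, -0.23, -0.22 and -0.32 on the control arrays and 0.26, 0.39, 0.41 and 0.63 on the PMSG arrays. Every PMSG array lay above every control array, and the 4 controls were within a narrow band. The means were -0.26 ± 0.046 (SD, n = 4) and 0.42 ± 0.16 (SD, n = 4). Gja5 was 1.61-fold higher in arrays labelled PMSG, a log2 difference of 0.68 (SE 0.10, 95% interval 0.45 to 0.92; limma, adjusted p = 0.00162). By the slide row in the file headers, rows 1 and 2 each held 2 arrays of each label. The difference was 0.68 within row 1 and 0.69 within row 2. Whether all arrays shared a slide was not examined.

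Vessel markers are given beside Gja5 and Gja4. The arterial endothelium list, without these genes, had 1 of 8 genes higher and 1 lower, with a median log2 difference of 0.14. Sox17, a transcription factor of arterial endothelium, differed by 0.96, and Nrp1, a receptor for vascular growth factor and semaphorins, by -0.54. Both calls were lost under some alternatives, 5 of 18 for Sox17 and 6 of 18 for Nrp1. Its summed level was 2.41 to 3.07 on control and 2.34 to 2.71 on PMSG arrays. Of 12 general endothelium genes 2 were higher and 5 lower (median -0.44), among them Cldn5, a tight junction protein, at 1.55, Flt1 at -1.04 and Eng at -0.90, with Tek at least 2.02-fold lower and above background on 3 of 4 PMSG arrays. The call of Tek was lost with normexp background correction, at a log2 difference of -0.20. The summed endothelial level was 27.9 to 36.4 on control and 27.7 to 31.6 on PMSG arrays. None of the 10 smooth muscle and pericyte genes passed at the adjusted threshold (median -0.011), and their summed level was 63.7 to 99.9 and 70.6 to 105. The part of vessel content in the Gja5 difference was not tested.

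Gjb2 codes for Cx26, a connexin best known from the inner ear and epithelia. Scaled log2 signal was -0.69, -0.16, 0.26 and -0.76 on the control arrays and -2.19, -2.46, -1.66 and -1.34 on the PMSG arrays. The highest PMSG array, array 4, lay below the lowest control array, array 4. The means were -0.33 ± 0.48 (SD, n = 4) and -1.91 ± 0.51 (SD, n = 4). Gjb2 was 2.99-fold lower in arrays labelled PMSG, a log2 difference of -1.58 (SE 0.31, 95% interval -2.29 to -0.87; limma, adjusted p = 0.00528). Within slide rows 1 and 2 the difference was -1.60 and -1.56. Up to 10 spots read this probe on each array, with an SD between spots of at most 0.12.

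Markers of luteinised cells moved in the same direction as Gjb2. Of 10 genes 9 were lower and 0 higher in arrays labelled PMSG, with a median log2 difference of -2.45, or -2.04 with the genes at background set at their bound. Akr1c18, the enzyme that breaks down progesterone, was at least 247-fold lower and was above background on 1 of 4 PMSG arrays. Ptgfr, the receptor for prostaglandin F, was at least 3.14-fold lower and above background on 0 of 4. These bounds hold for the processed signal: with normexp background correction the log2 differences were -5.44 for Akr1c18 and -0.53 for Ptgfr, smaller than the bounds, and both still passed. Runx2, a transcription factor, was lower, at a log2 difference of -5.33. The summed level of the list was 221 to 260 on control arrays and 33.4 to 74.9 on PMSG arrays, of which the label check genes made up 117 to 134 and 7.42 to 22.9. Markers of oviduct and ovarian surface epithelium moved the other way from Gjb2, with 8 of 13 genes higher and 0 lower. The part of luteinised or epithelial cells in the Gjb2 difference was not tested.

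Gjb1 codes for Cx32, a connexin of epithelia, hepatocytes and myelinating Schwann cells. Scaled log2 signal was -5.96, -6.15, -5.85 and -6.20 on the control arrays and -4.00, -4.83, -4.14 and -5.23 on the PMSG arrays. Every PMSG array was above every control array, with PMSG arrays 1 and 3 the highest. The means were -6.04 ± 0.17 (SD, n = 4) and -4.55 ± 0.58 (SD, n = 4). Gjb1 was 2.82-fold higher in arrays labelled PMSG, a log2 difference of 1.49 (SE 0.27, 95% interval 0.87 to 2.12; limma, adjusted p = 0.00377). The probe was dim: its unscaled signal was 14.8 to 17.4 on control arrays and 28.9 to 61.5 on PMSG arrays, and its 2 spots differed with an SD of up to 1.00 on 1 array. With normexp background correction the log2 difference was 0.53 (adjusted p = 0.0256), so its size depended on the background while its direction did not.

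Gjb5 codes for Cx31.1, a connexin known from skin and placenta. Scaled log2 signal was -3.49, -3.80, -3.53 and -3.70 on the control arrays and -2.92, -3.37, -2.84 and -3.05 on the PMSG arrays. The lowest PMSG array, array 2, lay just above the highest control array, array 1, so the groups did not overlap. The means were -3.63 ± 0.15 (SD, n = 4) and -3.04 ± 0.23 (SD, n = 4). Gjb5 was 1.5-fold higher in arrays labelled PMSG, a log2 difference of 0.59 (SE 0.14, 95% interval 0.26 to 0.91; limma, adjusted p = 0.0136). It kept passing without any single array, with an adjusted p of up to 0.0432.

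Gjb1 and Gjb5 shared an order of arrays within each label that was noticed after their values were seen: arrays 1 and 3 read above arrays 2 and 4, in the controls and in the PMSG arrays. The median scaled signal over all probes had the same order, at -3.13 and -3.10 on control arrays 1 and 3 and -3.20 and -3.22 on arrays 2 and 4. On the PMSG arrays it was -2.89 and -2.82 on arrays 1 and 3 and -3.06 and -3.21 on arrays 2 and 4. With each array centred on its median, Gjb1 still passed at 1.33 (limma, adjusted p = 0.00134) and Gjb5 at 0.42 (adjusted p = 0.0379).

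Epithelial markers moved in the direction of Gjb1 and Gjb5. They did not move in that of Gjb2, named above as a connexin of epithelia, which was lower, at -1.58. Of 13 genes of oviduct and ovarian surface epithelium 8 were higher and 0 lower, with a median log2 difference of 0.91. Muc1, an epithelial mucin, was at least 8.03-fold higher and above background on 3 of 4 control arrays, and Dnah5, a motor of motile cilia, was at least 2.37-fold higher and above background on 2 of 4, a call lost in the deposited table. With normexp background correction the log2 differences were 1.45 for Muc1 and 0.45 for Dnah5, smaller than these bounds, and both passed. Cdh16, a cadherin of epithelia, was higher by 2.51 and Cldn4, an epithelial tight junction protein, by 1.72. The summed level was 27.4 to 36.7 on control arrays and 40.5 to 63.3 on PMSG arrays. Leukocyte markers were higher for 4 of 9 genes and lower for 0 (median 0.64), with Ptprc at 0.69, Aif1 at 0.68, Laptm5 at 0.64 and Cd68 at 0.51, and a summed level of 8.48 to 10.5 against 12.9 to 14.6. The call of Cd68 was lost under 9 of 18 alternatives. Red blood cell genes had 1 of 6 lower, Alas2 at -1.38, with a median of -0.72 and a summed level of 190.2 to 238.7 on control and 151.1 to 221.02 on PMSG arrays. The part of these cells in the connexin differences was not tested.

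Gjc1 codes for Cx45, a connexin of smooth muscle, endothelium and early embryonic cells. Scaled log2 signal was -1.56, -1.49, -1.50 and -1.42 on the control arrays and -2.40, -1.76, -2.13 and -1.66 on the PMSG arrays. Every PMSG array lay below every control array, and the PMSG arrays spread far wider than the controls. The means were -1.49 ± 0.060 (SD, n = 4) and -1.99 ± 0.34 (SD, n = 4). The log2 difference of -0.49 (SE 0.17, 95% interval -0.88 to -0.11) missed the threshold (limma, adjusted p = 0.0521). It passed under 5 of 18 alternatives, with -0.60 (adjusted p = 0.0184) without PMSG array 4 and -0.60 (adjusted p = 0.0137) with array weights. No call is made for this gene.

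**Figure D2:**
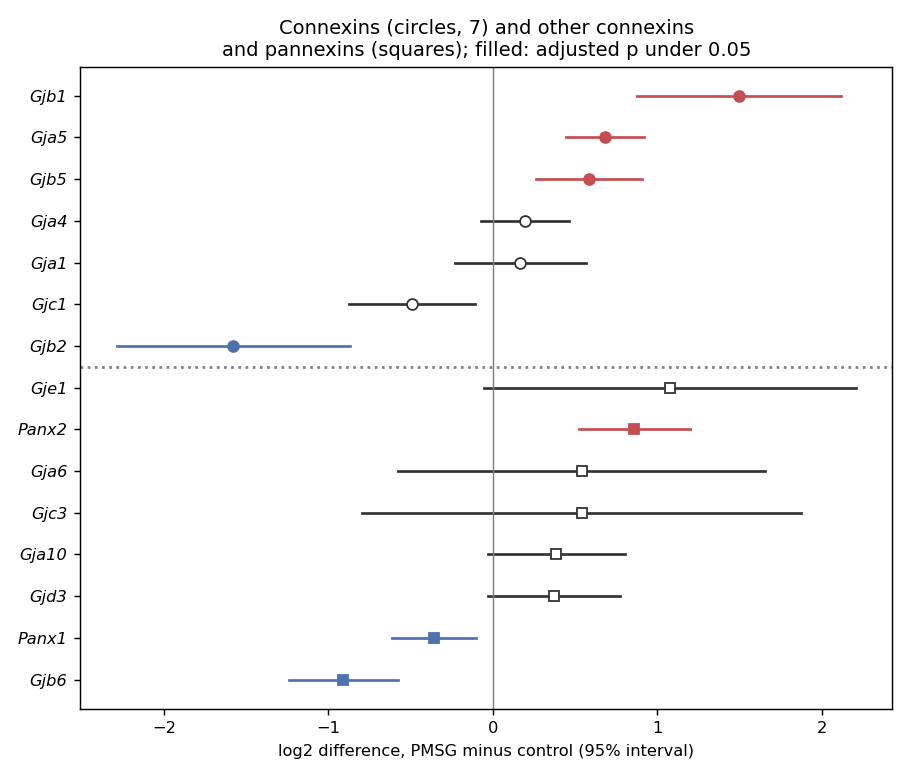
Log2 difference between the arrays labelled PMSG and those labelled control (x axis) with its 95% interval, for the 7 connexins (circles, above the dotted line) and for the 8 tested other connexins and pannexins (squares). Filled symbols passed at an adjusted p under 0.05 (red higher, blue lower in PMSG) and open symbols did not. Gjb1 at 1.49 and Gjb2 at -1.58 lie at the ends of the members' range.

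Other connexins and pannexins read from the array came to 12 genes, of which 8 were tested. Of these, 1 was higher and 2 were lower, with a median log2 difference of 0.46. Gjb6, which codes for Cx30, lies next to Gjb2 on chromosome 15, with 24.0 kb between their probes on rn4. Its scaled log2 signal was -3.07, -2.57, -2.73 and -2.69 on control arrays and -3.43, -3.90, -3.71 and -3.66 on PMSG arrays, without overlap. The log2 difference of Gjb6 was -0.91 (SE 0.14, 95% interval -1.24 to -0.58; limma, adjusted p = 0.00205), so both neighbours were lower. Gja3, 101.04 kb to the other side of Gjb2, was not tested because its probe was above background on 1 array of each label.

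Gja4 and Gjb5 both lie on chromosome 5, with 47.5 kb between their probes on rn4. Gjb5 passed and Gja4 did not. Their intervals shared the range from 0.26 to 0.46, and the difference between them was not tested.

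Panx2, a pannexin, which forms single-membrane channels rather than junctions, was higher by 0.86 (SE 0.15; limma, adjusted p = 0.00279), with control arrays at -3.49, -3.19, -3.31 and -3.61 and PMSG arrays at -2.28, -2.71, -2.73 and -2.44. Panx1 was lower, at -0.36 (adjusted p = 0.0380), but 9 of 18 alternatives ended that call. Gja6, Gja10, Gjc3, Gjd3 and Gje1 did not pass, with log2 differences from 0.37 for Gjd3 to 1.08 for Gje1 (adjusted p = 0.125), whose probe was above background on 1 control and 3 PMSG arrays. Gja10 and Gje1 passed without PMSG array 4 (0.53 and 1.47) and with array weights. Gja3, Gjd2, Gjd4 and Panx3 were not tested, and Panx3 was above background on no array.

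Partners of the junction were read from a list of scaffold, adhesion and kinase genes that bind or phosphorylate connexins or hold the membranes together. All 21 were tested, 7 were higher and 4 lower, and the median log2 difference was 0.09. Nov, a matricellular protein that binds Cx43, was higher by 2.12 (SE 0.28; limma, adjusted p = 0.000844). Tjp1, the scaffold ZO-1 that binds the tail of Cx43, was higher by 0.65 (adjusted p = 0.00783), and its relative Tjp3 by 1.62 (adjusted p = 0.00825). Tjp1 was named after its value was seen. Ctnna1, which ties cadherins to actin, was lower, at -0.78 (adjusted p = 0.00277), as was Nectin2, an adhesion molecule, at -0.73 (adjusted p = 0.00165). Changes in both directions stood beside a Gja1 difference that did not pass.

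The cyclic nucleotide route that gap junctions serve in meiotic arrest had 18 genes with a probe and 14 tested. Of these, 0 were higher and 6 lower, with a median log2 difference of -0.16. Nppc, the granulosa peptide that starts the cyclic GMP signal, was 2.92-fold lower in arrays labelled PMSG (log2 difference -1.55, SE 0.30; limma, adjusted p = 0.00553). Egfr, through which luteinising hormone's relayed signals act in the follicle, was lower, at -1.09. So were Impdh1, an enzyme of guanine nucleotide synthesis, at -1.05 and Adcy3, an adenylyl cyclase, at -0.85. The adjusted p-values were 0.00500, 0.000449 and 0.00402. The call of Adcy3 was lost with normexp background correction (-0.31, adjusted p = 0.0541). Gpr12, Pde3a, Prkg1 and Prkg2 were not tested, as their probes were at background on most arrays. The Gpr12 probe was above background on 0 control and 3 PMSG arrays, so the count of higher genes leaves it out.

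Transzonal projections are the thin processes by which granulosa cells reach the oocyte and place their junctions on it. Of 11 tested genes that build them or similar protrusions 2 were higher and 4 lower (median -0.38). Tubb3, a tubulin, was lower, at -1.68 (limma, adjusted p = 0.000498) and Fscn1, which bundles actin, at -0.76 (adjusted p = 0.00124). Camsap3, which caps microtubule minus ends, was higher by 1.02 (adjusted p = 0.00216). Vil1, another actin bundler, was higher by 0.71 (adjusted p = 0.0311), and 6 of 18 alternatives ended that call.

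Granulosa and theca markers are given beside Gja1. Of 12 granulosa genes 3 were higher and 4 lower (median -0.021), with Amh, the hormone of small growing follicles, higher by 3.03 and its receptor Amhr2 by 1.71, and the nuclear receptor Nr5a2 lower, at -1.47, and Inhba, an activin subunit, at -1.32. The call of Inhba was lost under 5 of 18 alternatives, the replicate block among them. The summed granulosa level was 164 to 285 on control and 147 to 181 on PMSG arrays. Of 7 theca genes 3 were higher and 1 lower (median 0.066), led by Insl3 at 2.60, with Aldh1a1 at -1.12, Gli1 at 0.87 and Ptch1 at 0.79, of which Ptch1 lost its call under 4 of 18 alternatives. The summed theca level was 171 to 202 on control and 138 to 207 on PMSG arrays. Their part in the connexin values was not tested.

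**Figure D3:**
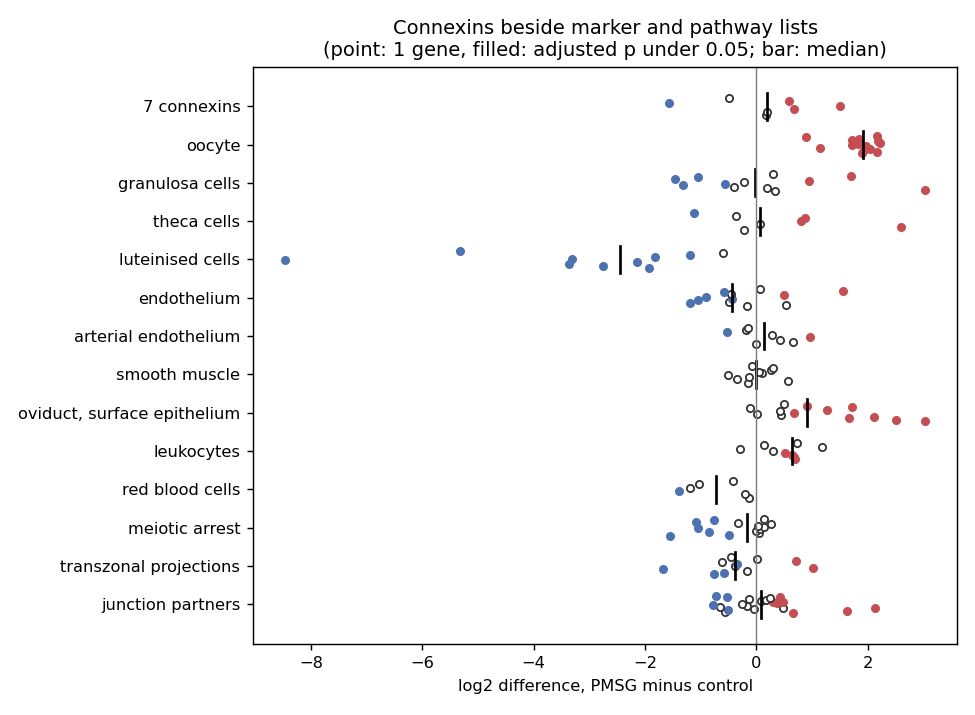
Log2 difference between arrays labelled PMSG and labelled control (x axis) for the 7 connexins and for each marker and pathway list, 1 point per tested gene, with the list median as a bar. Filled points passed at an adjusted p under 0.05. Genes near background are drawn at their fitted difference and not at their bound. Oocyte genes lie to the right (median 1.92) and luteinised cell genes to the left (median -2.45), while the connexins lie on both sides of 0 (median 0.19).

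The genes whose scaled log2 signal followed each connexin most closely were listed by Pearson's r over the 8 arrays, among 13771 named genes above background on all of them. This is a description: both labels enter it, so a gene that differs between labels is near any other that does. Ihh, a hedgehog ligand of granulosa cells, was nearest to Gja1 (r = 0.954), followed by Nudt17 (r = 0.953). For Gja4 they were Sytl3 (r = 0.944) and Fam193a (r = 0.932). The nearest genes to Gja5 were Mzf1 and Ntrk3 (r = 0.997 and 0.997), to Gjb1 Xrra1 (r = 0.992) and Iqcf1 (r = 0.991), and to Gjb5 Bpifb5 (r = 0.989) and Noxo1 (r = 0.985). Gjb2 was followed by Lmna, a protein of the nuclear lamina (r = 0.988), and Kpna6, a nuclear import factor (r = 0.985), and Gjc1 by Tmem237 (r = 0.984) and Hdac3, a histone deacetylase (r = 0.978). None of these 14 genes was a connexin. The members were left out by rule, while other connexins above background on all 8 arrays were not.

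Apart from Gjc1, no member's call depended on the processing alternatives that were run. Gja5, Gjb1, Gjb2 and Gjb5 passed with the same sign in all 18 alternatives, and Gja1 and Gja4 passed in none. Over the alternatives the log2 difference of Gja5 ran from 0.52 to 0.74, that of Gjb1 from 0.53 to 1.72, that of Gjb2 from -1.77 to -1.38 and that of Gjb5 from 0.40 to 0.69.

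**Figure D4:**
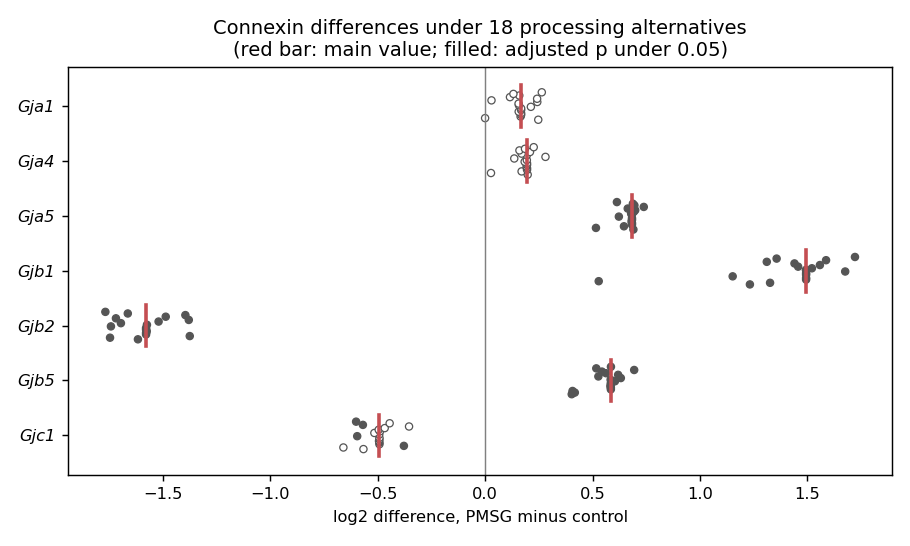
Log2 difference of each connexin between arrays labelled PMSG and labelled control (x axis) under 18 processing alternatives, 1 point each, with the value used in the text as a red bar. Filled points passed at an adjusted p under 0.05. Gja5, Gjb1, Gjb2 and Gjb5 are filled throughout, Gja1 and Gja4 are open throughout, and Gjc1 holds both kinds.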

How the data were processed

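RNA of whole rat ovary was measured on 8 one-colour Agilent arrays, 4 per label, and groups were taken from the sample titles and sources. The spots' intensity values come from Agilent Feature Extraction 11.5.1.1, per the file headers, with background subtracted and probe positions on rn4. A deposited table of log2 values by the authors was, set against the scanner values, log2 signal less the 75th percentile of its array, and its probes were not centred (97.0% to 97.9% of values within 0.1). Columns not used numbered 0.

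Control spots and spots marked as outliers were left out (8 of 240 spots of the connexin probes), log2 processed signals of a probe's spots were averaged, and each array's 75th percentile was subtracted. Of 30367 probes 17 had no usable spot on some array. The 25303 tested probes were well above background on at least 4 of 8 arrays, meaning on at least 0.5 of their usable spots. The 4 arrays per label limit the precision. PMSG and control were compared by lmFit and eBayes in limma 3.58.1 (R 4.3.3), with the label as the one term. P-values were adjusted by Benjamini-Hochberg across every tested probe, with 0.05 as the threshold, and the procedure was tested on simulated data. Intervals are 95% intervals of that fit. Bounds ("at least") set the brighter label's mean against the higher of the probe's own value and the lowest spot well above background on each dim array.

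The members and the lists were chosen with earlier results of these data known. Named genes are the members, the other connexins and pannexins and up to 4 genes with the largest called difference in each list. The 2 nearest patterns of each member and the label check genes are named too. Inha and Hsd3b1 are named as the brightest of their lists. Each list gene was read from its brightest probe. The lists were other connexins and pannexins, junction partners, meiotic arrest, transzonal projections, oocyte, granulosa, theca, luteinised cells, endothelium, arterial endothelium, smooth muscle, oviduct and surface epithelium, leukocytes and red blood cells. Some listed genes are not reported here, and the counts leave them out. Promoters are from the RefSeq table of GRCr8, where 5 of 7 members had an entry. Alternatives covered scaling, background, filter, the deposited table, replicate and slide row blocks, array weights, outlier spots and leaving out each array.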

Additional observations from a re-analysis of the deposited data

Results flagged for a closer look

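Among 150 groups of 4 arrays examined over the connexins, the named genes and the list means, 6 held an array whose gap to the nearest other, as a share of the group's range, exceeded the 95% critical value of Dixon's test; chance gives about 1 in 20, or 7.5 groups. No group of a member connexin was among them. PMSG array 4 stood apart for Insl3 (2.49 against 3.50 to 3.59 on the other three, gap 0.921 of the range) and for Gli1 (-1.27 against -1.72 to -1.70, gap 0.955). The same array stood apart in the mean scaled level of the granulosa list (1.84 against 2.15 to 2.16, gap 0.944) and of the theca list (1.08 against 1.52 to 1.56, gap 0.903). Gjc1 passed without this array, as it did without PMSG array 2. PMSG array 3 stood apart for Laptm5 (2.52 against 2.42 to 2.43, gap 0.903). Control array 4 stood apart for Cdh16 (-1.31 against -0.72 to -0.65, gap 0.887).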

How the results depend on the processing

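Of the 7 connexins, 4 passed as reported and 4 or 5 under the 18 alternatives, the fifth being Gjc1. Gjc1 passed with normexp background correction (-0.38, adjusted p = 0.0480), over probes well above background on all 8 arrays (-0.49, adjusted p = 0.0451) and with array weights (-0.60, adjusted p = 0.0137); leaving out 1 array gave -0.60 to -0.35, with calls without PMSG array 2 (-0.57, adjusted p = 0.0492) and PMSG array 4. Centring each array on its median put Gja1 at -0.0002 (adjusted p = 0.999), the opposite sign of its uncalled 0.17. Same-numbered arrays' deviations from their group means correlated at 0.044, 0.036, 0.18 and -0.019. For control array 3 the closest PMSG array had the same number, and for the other control arrays it did not. The labels do not say that replicate numbers pair animals, and these correlations cannot exclude it. With the replicate number as a block 4 connexins passed, the same number as without it, and 7346 probes in place of 8658. The block ended the calls of Panx1 (adjusted p = 0.0571), Inhba, Ptch1, Nrp1 and Cd68. The count of all called probes was 8124 to 11002 under the other alternatives and 6552 (without control array 4) to 11382 (without PMSG array 4) with 1 array left out. Of these calls 51.4% were higher as reported, 46.2% with quantile normalization and 34.5% with median centring, which moved the median difference of all tested probes from 0.11 to -0.054. Of 53 genes of the other lists, 41 kept their side of the threshold and their direction in every alternative that tested them, which was 17 of 18 for Akr1c18, Ptgfr, Muc1 and Gja6, whose probes were not above background on all 8 arrays. The mean over several probes of a gene was not run, since each member has 1. The Gjb1 signal near background limits its size.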
